A study of Homo sapiens with 4 samples.

Results

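The secreted frizzled-related proteins are a small family of extracellular Wnt antagonists, and the genes SFRP1, SFRP2, SFRP4, SFRP5 and FRZB (also called SFRP3) were described here together with WIF1, which encodes Wnt inhibitory factor 1. These 6 genes were chosen by name, and each was found on 1 of the 58365 gene rows of the expression table. The table holds 4 RNA-seq libraries from H1, an established human embryonic stem cell line, all collected at day 2 of hematopoietic differentiation. All of them were grown in Custom mTeSR1 medium with activinA at 40 ng/ml and BMP4 at 50 ng/ml, as the sample labels give the doses (the methods of the study give the 2 values the other way round). The DMSO group (n = 2) received no IWP2, and the IWP2 group (n = 2) was treated with this Wnt inhibitor for the same 2 days, at a concentration not given in the sources used here. No deletion or transgene was involved, and nothing in the labels says whether the libraries of a group came from separate cultures, so the p-values below measure only the spread between these libraries, which may be technical.

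Wnt ligands are lipid-modified by the acyltransferase Porcupine before they can leave the cell, and IWP2 blocks this enzyme. Once outside, a Wnt ligand binds the cysteine-rich domain of a Frizzled receptor. The secreted frizzled-related proteins carry a cysteine-rich domain of the same type joined to a netrin-like domain, and can hold ligand, or receptor, away from signaling. WIF1 is built differently: it binds Wnt ligands through a WIF domain, which it shares with the receptor RYK, followed by EGF-like repeats. Wnt signaling drives pluripotent cells toward primitive streak and mesoderm, and many of its inhibitors are themselves switched on during that step.

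The effect of the inhibitor on the cells was checked first on lists of marker genes. Of 10 Wnt feedback and target genes, 7 fell with IWP2 and none rose, among them LEF1 and SP5, which went from means of 9.52 and 50.1 to 0.191 and 0.371 FPKM (fragments per kilobase of transcript, relative to all mapped fragments of a library, so that levels of different genes can be compared). All 12 nascent mesoderm markers that could be tested fell, and their sum over 13 genes was 1234 and 1563 FPKM in DMSO against 195 and 215 FPKM in IWP2. Of 8 pluripotency genes, 5 rose and 2 fell, among them TDGF1 (named after its value was seen). Of the 7 hemogenic endothelium markers 4 could be tested, RUNX1 fell from 2.51 and 2.35 FPKM to 0.209 and 0.350 FPKM, and CD34, ETV2 and SOX7 did not pass. The highest value among these 4 was 5.43 FPKM (CD34 in DMSO 1), and CDH5, PECAM1 and TAL1 stayed below 0.5 FPKM in every library. Across the 15980 genes tested, 929 rose and 1175 fell with IWP2. Library sums ranged from 616418 to 653850 FPKM, the sequencing depth is unknown because the table holds no counts, and the replicates correlated at 0.975 (DMSO) and 0.981 (IWP2) across genes.

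The members formed 3 tiers of expression. SFRP2 was abundant, SFRP1 and FRZB were expressed well below it, and SFRP4, SFRP5 and WIF1 were close to 0 (none reached 0.5 FPKM in any library). In DMSO the means of SFRP1 and FRZB were above those of 47.39% and 45.99% of genes tested. In IWP2 these shares were 31.63% and 11.15%. FRZB and SFRP1 fell with IWP2, by 7.47-fold and 2.34-fold as ratios of mean FPKM, whereas the mean of SFRP2 was 1.37-fold higher in IWP2, a difference that did not pass the test. Only genes with a mean of at least 0.5 FPKM over all 4 libraries were tested, and 3 of the 6 members met that limit. Of these 3, 2 passed with lower expression in IWP2 and none passed with higher expression. Over all genes tested the same call was made for 13.2% in either direction, 7.35% lower and 5.81% higher. With a list of 3 tested genes these shares are given only as background.

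**Figure D1:**
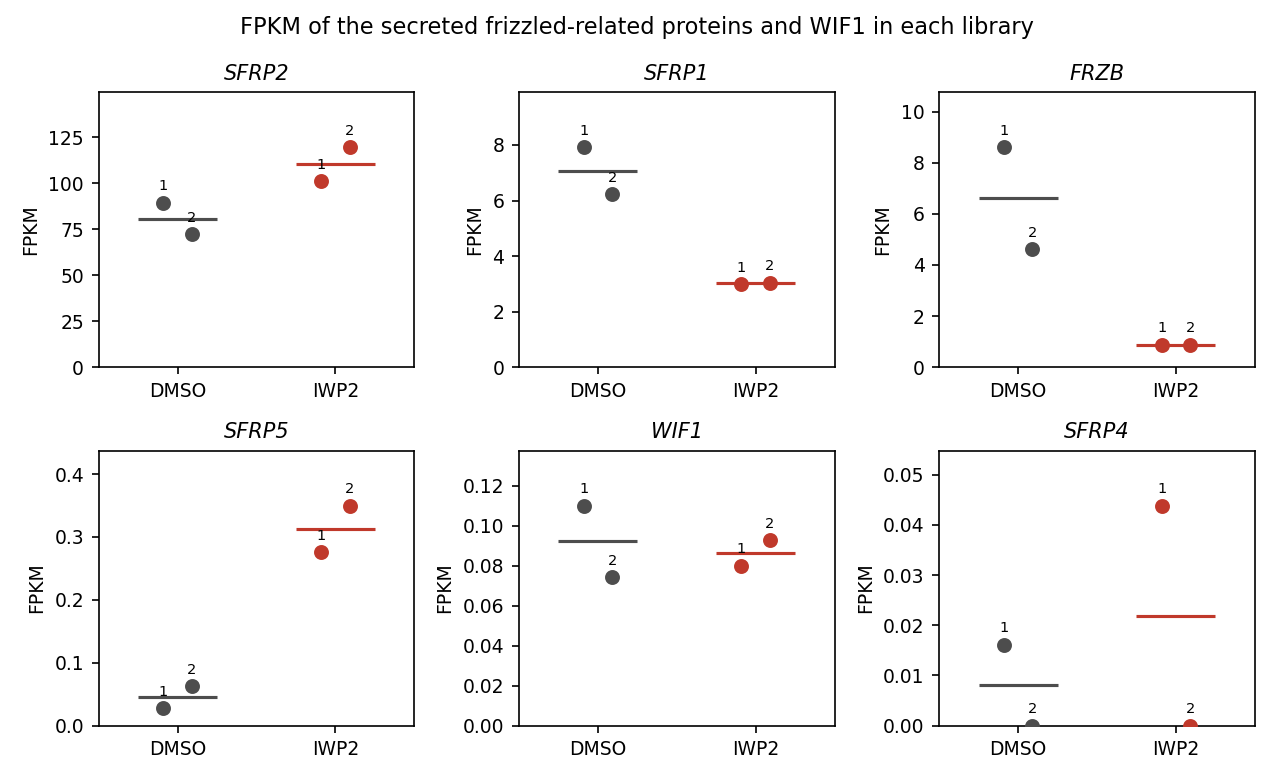
FPKM of each member (y axis, linear from 0, a separate scale in each panel) in the DMSO and IWP2 libraries (x axis); points are single libraries numbered by replicate, and the horizontal line is the mean of the 2. FRZB and SFRP1 sit lower in both IWP2 libraries, SFRP2 and SFRP5 sit higher, and the groups of WIF1 and SFRP4 overlap.

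The gene with the largest decrease was FRZB, a family member first studied in cartilage and in the organizer of the frog embryo. FRZB lies on the minus strand of chromosome 2 (GRCh38, chr2:182833275-182867162) and has 1 transcript in the GENCODE v29 annotation. Its level was 8.61 FPKM in DMSO 1 and 4.61 FPKM in DMSO 2, against 0.886 FPKM in IWP2 1 and 0.884 FPKM in IWP2 2. Both IWP2 libraries were below both DMSO libraries, and the IWP2 pair was nearly identical whereas the DMSO pair differed 1.87-fold. On the log2(FPKM + 1) scale the difference was -1.96 (95% interval -2.68 to -1.24, SE 0.28, limma adjusted p = 0.0149). This scale understates the change of a gene whose values lie this close to the pseudocount. With a pseudocount of 0.1 in place of 1 the difference was -2.70. The call was kept without either DMSO replicate (adjusted p = 0.0457 and 0.0403) and was lost without IWP2 replicate 1 (adjusted p = 0.158) or IWP2 replicate 2 (adjusted p = 0.159), where the difference stayed at -1.96. The call was also lost when no filter on low values was used (adjusted p = 0.103).

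The DMSO libraries were far apart for FRZB relative to other genes. The gap between DMSO 1 and DMSO 2 was 0.78 on the log2 scale, larger than that of 95.6% of the genes tested, for which the median gap was 0.16. The 7 markers of definitive endoderm showed no common direction between the same libraries (values below are DMSO 1 against DMSO 2). FOXA2 (6.28 against 3.49 FPKM) and CXCR4 (24.1 against 14.5 FPKM) were higher in DMSO 1. GATA6 (119 against 134 FPKM) and CER1 (1612 against 2048 FPKM) were higher in DMSO 2. Over the groups, 5 of the 6 tested endoderm markers fell with IWP2, the summed level of all 7 went from 1918 and 2307 FPKM to 126 and 137 FPKM, and none was at 0 in any library. CER1 made up most of that sum in DMSO. Without it the other 6 markers summed to 306 and 259 FPKM in DMSO and 87.7 and 103 FPKM in IWP2. SOX17, the 1 tested marker that did not pass (limma adjusted p = 0.167, named after its value was seen), measured 155 and 104 FPKM in DMSO. In IWP2 it measured 79.7 and 94.9 FPKM, most of the sum without CER1. The order of the DMSO sums without CER1, DMSO 1 above DMSO 2, came from SOX17. The part of endoderm-like cells in the FRZB difference was not tested. In bulk RNA, fewer cells that express a gene and less RNA per cell cannot be told apart, here and for every gene below.

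When all tested genes were ranked by the distance between their profiles over the 4 libraries, each centred on its own mean of log2(FPKM + 1), the 3 nearest to FRZB were CXCR4 (distance 0.11 on the log2 scale), IGFBP6 (0.12) and S100A10 (0.12). The chemokine receptor gene CXCR4 measured 24.1 and 14.5 FPKM in DMSO against 3.92 and 4.40 FPKM in IWP2. The likeness rests on 4 libraries and is a description of those libraries.

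SFRP1, a binder of both Wnt ligands and Frizzled receptors, was the second member that fell. The gene is on the minus strand of chromosome 8 and has 2 transcripts in GENCODE v29. Its level was 7.93 and 6.23 FPKM in DMSO 1 and 2 and 2.99 and 3.05 FPKM in IWP2 1 and 2. The groups did not overlap, and as for FRZB the IWP2 libraries lay closer together than the DMSO libraries. The difference was -1.00 on the log2(FPKM + 1) scale (95% interval -1.40 to -0.60, SE 0.15, limma adjusted p = 0.0187). The direction was kept whichever library was left out, with differences of -0.85 to -1.15, but the adjusted p rose to 0.0847 without DMSO replicate 1, 0.0667 without DMSO replicate 2, 0.171 without IWP2 replicate 1 and 0.168 without IWP2 replicate 2, and it was 0.0903 with no filter on low values. The nearest profiles were those of the pseudogene ARPC3P2 (distance 0.02), NETO2 (0.04) and ALDH3A2 (0.05).

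SFRP1 and FRZB were expressed at about the same level in DMSO and at different levels in IWP2. The ratio of SFRP1 to FRZB was 0.920 and 1.35 in the DMSO libraries, with the order of the genes changing between the replicates, and 3.38 and 3.45 in the IWP2 libraries. The levels of the 2 genes therefore could not be ordered in DMSO, while SFRP1 was above FRZB in both IWP2 libraries.

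SFRP2 was the predominant family member. It encodes an antagonist that human embryonic stem cells are known to express, and that also acts on the procollagen proteinase BMP1. The gene lies on the minus strand of chromosome 4 (GRCh38, chr4:153780592-153789120), with 1 annotated transcript. SFRP2 measured 89.4 FPKM in DMSO 1 and 72.2 FPKM in DMSO 2, and 101 FPKM in IWP2 1 and 120 FPKM in IWP2 2. Both IWP2 libraries were above both DMSO libraries, by a margin that was smaller than the distance between the replicates of either group. A lack of overlap of this kind was common: it was seen for 58.6% of all genes tested. The difference was 0.45 on the log2(FPKM + 1) scale (95% interval 0.09 to 0.81, SE 0.14), and it did not pass after adjustment over all genes (limma adjusted p = 0.111). The mean of SFRP2 was above that of 93.0% of genes tested in DMSO and of 95.1% in IWP2. Beside these values, the sum of the 8 pluripotency genes was 1188 and 1030 FPKM in DMSO and 2313 and 2291 FPKM in IWP2, none was at 0 in any library, and SOX2 measured 0.193 and 0.174 against 35.6 and 36.1 FPKM. The rise of that sum came from POU5F1, without which the other 7 genes summed to 437 and 458 FPKM in DMSO and 458 and 447 FPKM in IWP2. That level sum hides moves in both directions. Among the 7, SOX2 rose as above, and TDGF1 fell from 203 and 221 FPKM to 103.5 and 98.6 FPKM. Of 9 amnion and surface ectoderm markers 6 could be tested, 4 rose and none fell, among them the keratin gene KRT7 (0.833 and 0.864 against 5.85 and 8.22 FPKM) and GABRP (0.467 and 0.455 against 2.13 and 2.40 FPKM), which encodes a GABA receptor subunit. Their sum was 65.4 and 64.7 FPKM in DMSO and 85.6 and 92.8 FPKM in IWP2, and TFAP2B was at 0 in DMSO 2. The largest rise in FPKM on this list was that of TFAP2A, from a mean of 14.3 FPKM in DMSO to 34.1 FPKM in IWP2. The 2 tested markers that did not pass, GATA3 and ISL1 (named after their values were seen), had lower means in IWP2. GATA3, the most abundant marker of the list, went from 41.7 to 36.2 FPKM, and ISL1 from 6.805 to 6.346 FPKM. Of 8 neuroectoderm markers 2 could be tested and 1 rose (SOX3, 0.488 and 0.445 against 4.08 and 3.97 FPKM), while SOX1, which marks neural cells, was at 0 in DMSO 1 and IWP2 1 and under 0.5 FPKM in the others. The sum of that list was 2.94 and 2.41 FPKM in DMSO and 5.46 and 4.49 FPKM in IWP2, and its rise came from SOX3. PAX6, the other tested marker (named after its value was seen), measured 1.33 and 0.646 FPKM in DMSO. In IWP2 it was lower, at 0.0838 and 0.0278 FPKM, and did not pass (limma adjusted p = 0.0780). The part of cells expressing these genes in the values of SFRP2 was not tested.

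**Figure D2:**
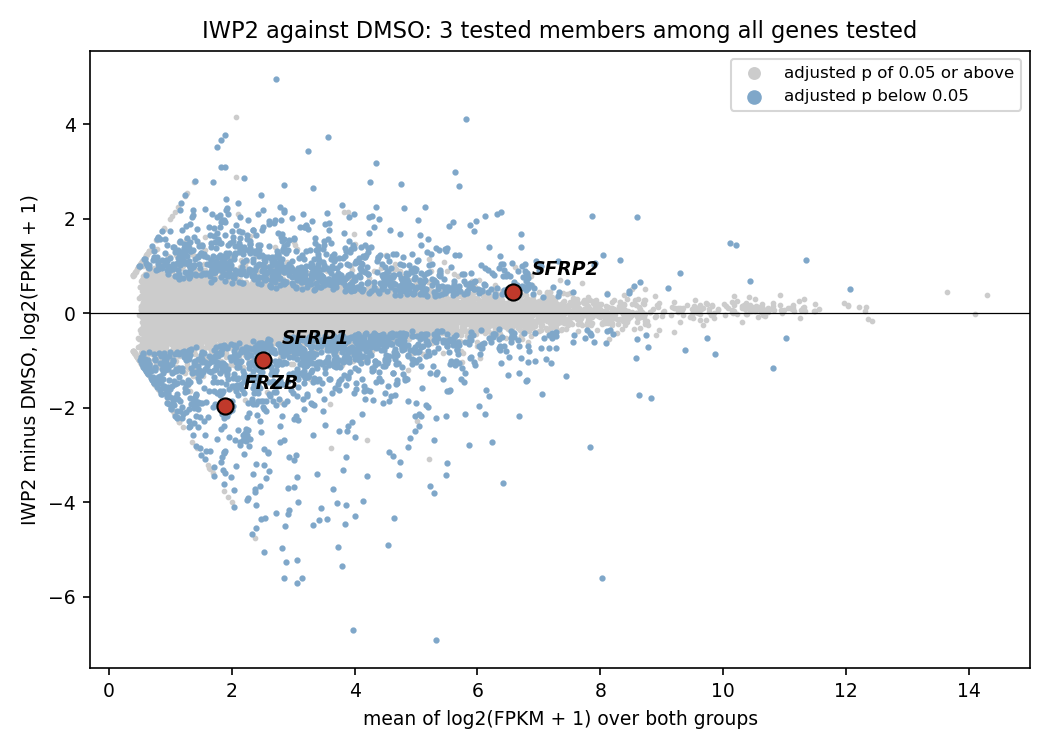
Difference between IWP2 and DMSO (y axis, log2(FPKM + 1), above 0 is higher in IWP2) against the mean level (x axis, same scale) for the 15980 genes tested; each point is a gene, blue where the adjusted p was below 0.05. FRZB (-1.96) and SFRP1 (-1.00) lie among the lower genes that fell, and SFRP2 (0.45) lies among abundant genes near the edge of those that did not pass.

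SFRP5, a close relative of SFRP1 that is known from anterior endoderm, was expressed at a trace level. It lies on the minus strand of chromosome 10 (GRCh38, chr10:97766751-97771952). The values were 0.0276 and 0.0623 FPKM in DMSO and 0.276 and 0.350 FPKM in IWP2. Every IWP2 value was above every DMSO value, and the ratio of the means was 6.96, but the gene was below the limit for testing. When all genes above 0 were fitted, the difference of 0.33 on the log2(FPKM + 1) scale had a limma adjusted p of 0.0940. Without counts it is not known how many fragments these values stand for.

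WIF1 and SFRP4 showed no separation. WIF1 (chromosome 12, minus strand, GRCh38, chr12:65050626-65121566) measured 0.110 and 0.0743 FPKM in DMSO and 0.0800 and 0.0928 FPKM in IWP2, with the IWP2 values between the DMSO values. SFRP4, a member known from endometrium and bone, was listed at 0 in DMSO 2 and IWP2 2 and at 0.0161 and 0.0439 FPKM in DMSO 1 and IWP2 1. The SFRP4 row spans chr7:37905932-38025695 on the minus strand and overlaps EPDR1 on the other strand, which measured 3.73 to 7.75 FPKM. Whether strand was used when fragments were assigned is not given in the sources used here, so the trace signal of SFRP4 cannot be told apart from that of its neighbor.

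For a single gene, an exact two-sided permutation test of 2 libraries against 2 cannot give a p below 0.333, and this value was reached by SFRP1, SFRP2, FRZB and SFRP5. It is reached whenever the libraries of the groups do not overlap, which held for 58.6% of all genes tested. Reaching it therefore does not set these members apart. The calls for FRZB and SFRP1 were made with limma, which shares information on spread across genes, and not with this test.

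The start regions of the members were inspected because the differences of SFRP2 and FRZB had opposite signs. RefSeq (GRCh38.p14) held a start region for 5 of the 6 members, all but SFRP1. The 250 bases before each RefSeq start were searched on both strands for the octamer of POU factors (ATTTGCAT), the TCF/LEF core in the forms CTTTGA and CTTTGT, the TATA box (TATAAA) and the inverted CCAAT box (ATTGG). These motifs were chosen after the sequences had been read. The SFRP2 stretch is shown because it held both the octamer and the inverted CCAAT box. The SFRP5 stretch is shown because it belongs to the other member with higher values in IWP2. Only 30 bases of FRZB are shown, because its whole window lies inside the gene as GENCODE v29 draws it. All 3 are read 5′ to 3′ on the minus strand, and capitals mark the motif letters.
SFRP2, chr4:153789111-153789333, bases 250 to 28 before the start: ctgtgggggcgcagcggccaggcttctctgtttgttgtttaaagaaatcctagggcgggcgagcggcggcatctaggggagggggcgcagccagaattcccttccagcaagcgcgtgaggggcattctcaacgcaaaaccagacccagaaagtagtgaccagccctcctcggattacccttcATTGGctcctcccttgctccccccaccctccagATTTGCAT
SFRP5, chr10:97772000-97772249, bases 250 to 1 before the start: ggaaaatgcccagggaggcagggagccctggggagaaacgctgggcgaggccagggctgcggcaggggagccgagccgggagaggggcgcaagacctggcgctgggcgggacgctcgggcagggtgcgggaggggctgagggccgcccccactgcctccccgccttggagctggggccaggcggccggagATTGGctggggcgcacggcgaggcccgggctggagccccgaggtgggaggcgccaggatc
FRZB, chr2:182866689-182866718, bases 81 to 52 before the start: ctcgtgggaccccATTGGgggaatttgatc

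The inverted CCAAT box began 68 bases before the start in SFRP2, 60 in SFRP5 and 68 in FRZB, and was not found in SFRP4 or WIF1. This motif is short, and 32.0% of the 35116 promoter windows of this length held it. The octamer began 35 bases before the RefSeq start of SFRP2 and was absent from the other 4 windows, and 1.63% of all windows held a match. GENCODE v29 draws the start of SFRP2 37 bases before that of RefSeq, so the octamer lies inside the transcript of that annotation and not before it. POU5F1, a POU factor of pluripotent cells, measured 751 and 571 FPKM in DMSO and 1854 and 1844 FPKM in IWP2. A link between POU5F1, the octamer and the level of SFRP2 was not tested. Neither TCF/LEF form was found in any of the 5 windows, against 11.2% (CTTTGA) and 13.7% (CTTTGT) of all windows, and the TATA box letters were likewise not found (10.7% of all windows). The GC content of the windows was 57.6% for SFRP2, 55.6% for FRZB and 76.8% for SFRP5, with a median of 58.0% over all promoters. A match describes these letters only, and the absence of one says nothing about sites elsewhere.

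The makeup of the family differed between the groups while its summed level overlapped. Adding the 6 members gave 106 and 83.2 FPKM in DMSO and 105 and 124 FPKM in IWP2, and DMSO 1 lay within the range of the IWP2 libraries. SFRP2 made up 84.3% and 86.8% of this sum in DMSO and 95.9% and 96.5% in IWP2. SFRP1 contributed 7.47% and 7.48% in DMSO and 2.84% and 2.45% in IWP2, and FRZB went from 8.12% and 5.54% to 0.839% and 0.712%. Without SFRP2 the members summed to 16.7 and 11.0 FPKM in DMSO and 4.28 and 4.37 FPKM in IWP2. SFRP2 was 11.3 and 11.6 times the level of SFRP1 in the DMSO libraries and 33.9 and 39.3 times in the IWP2 libraries.

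**Figure D3:**
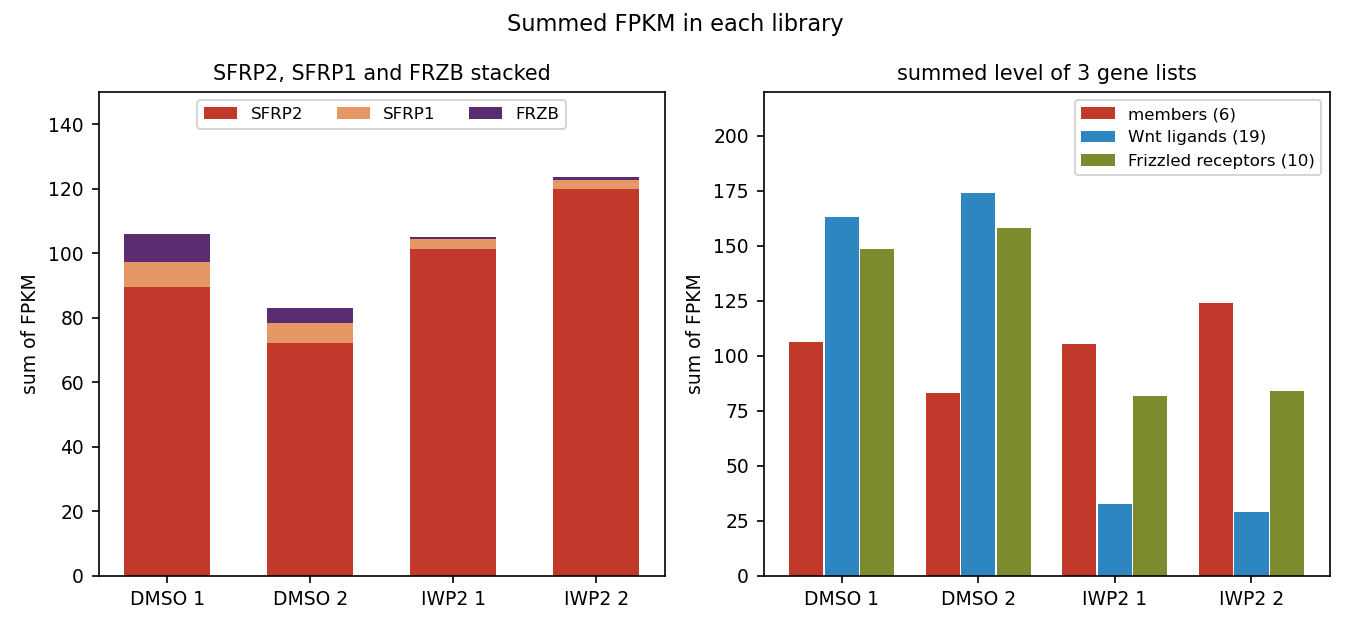
Sum of FPKM in each library (y axes, linear from 0; x axes, libraries). The left panel stacks SFRP2, SFRP1 and FRZB (SFRP4, SFRP5 and WIF1 add under 0.4% and are not drawn); the right panel sets the 6 members beside the 19 Wnt ligand and 10 Frizzled receptor genes, which sum to 163 and 174 FPKM and 148 and 158 FPKM in DMSO and to 32.8 and 29.1 FPKM and 81.9 and 83.8 FPKM in IWP2, lower mostly through WNT5A, WNT5B and FZD7.

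Among the ligands that these proteins bind, WNT5A and WNT5B fell the most in FPKM. All 19 Wnt ligand genes were in the table, 9 could be tested, 4 fell, 2 rose and 3 did not pass, with a median difference of -0.46 against -0.01 over all genes. WNT5A, a ligand of non-canonical signaling, went from 60.1 and 82.4 FPKM to 2.45 and 2.82 FPKM (log2 difference -4.30, limma adjusted p = 0.000625). WNT5B, its close relative, went from 83.2 and 70.9 FPKM to 10.1 and 9.67 FPKM, and WNT4 also fell. WNT2B rose from 0.709 and 0.605 FPKM to 6.21 and 3.77 FPKM. WNT5A and WNT5B made up 87.9% and 88.1% of the ligand sum in DMSO and 38.4% and 43.0% in IWP2, and the other 17 ligands summed to 19.8 and 20.6 FPKM in DMSO and 20.2 and 16.6 FPKM in IWP2, which overlap. The summed level of the members was 0.651 and 0.478 times that of all ligands in the DMSO libraries, and 3.22 and 4.27 times in the IWP2 libraries. Against the other 17 ligands alone it was 5.36 and 4.03 times in DMSO and 5.22 and 7.48 times in IWP2, and the groups overlapped. These ratios compare transcript levels per length and say nothing about protein.

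The Frizzled receptors share the cysteine-rich domain. Of 10 tested, 3 fell, 1 rose and 6 did not pass, with a median difference of -0.21. FZD7, the main Frizzled of human pluripotent cells, went from 79.3 and 92.3 FPKM to 17.8 and 17.5 FPKM, FZD8 and FZD1 fell, and FZD5 rose from 3.93 and 3.08 FPKM to 11.9 and 12.2 FPKM. The lower receptor sum in IWP2 came from FZD7, without which the other 9 summed to 69.2 and 66.1 FPKM in DMSO and 64.1 and 66.3 FPKM in IWP2. The members summed to 0.715 and 0.525 times all 10 receptors in DMSO and 1.29 and 1.48 times in IWP2, and to 1.53 and 1.26 times the other 9 in DMSO and 1.65 and 1.87 times in IWP2. Other genes with a cysteine-rich domain of this type moved in both directions. Of 5 tested, ROR1 and ROR2, which are Wnt receptors with a kinase domain, fell, and COL18A1 and CPZ, which encode a basement membrane collagen and a carboxypeptidase, rose.

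Genes that share the other domains of the members were mixed as well. Of 8 tested genes with a netrin-like domain, NTN1 and NTN4, which encode netrins, fell, TIMP2, an inhibitor of metalloproteinases, rose, and 5 did not pass. NTN4 went from 5.15 and 9.09 FPKM to 0.762 and 0.641 FPKM. RYK, the receptor with a WIF domain, measured 33.7 and 33.6 FPKM in DMSO and 30.6 and 28.6 FPKM in IWP2 and did not pass the test (limma adjusted p = 0.244). Among 6 partners of the family outside Wnt binding, 3 could be tested, and RECK, an inhibitor of metalloproteinases at the cell surface, fell from 5.66 and 6.65 FPKM to 3.66 and 3.28 FPKM. BMP1 measured 4.28 and 4.92 FPKM in DMSO and 4.25 and 2.98 FPKM in IWP2 and did not pass (limma adjusted p = 0.373).

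Other secreted Wnt antagonists were lower with IWP2 for the most part. Of 10 listed genes 8 could be tested, 5 fell, 1 rose (DRAXIN, a chemorepellent that binds the co-receptor LRP6, named after its value was seen) and 2 did not pass. The median difference of the 8 genes was -1.23. CER1, which encodes Cerberus, an antagonist of Nodal, BMP and Wnt ligands, went from 1612 and 2048 FPKM to 38.6 and 34.2 FPKM, and DKK1, which blocks the LRP co-receptors, from 30.1 and 25.4 FPKM to 0.200 and 0.919 FPKM. IGFBP4, a binder of insulin-like growth factors that can also act on Frizzled and LRP6, went from 126 and 142 FPKM to 36.0 and 42.2 FPKM. DKK4, a relative of DKK1, was listed at 0 in both IWP2 libraries and measured 1.99 and 1.34 FPKM in DMSO. Leaving CER1 aside, these genes summed to 209 and 212 FPKM in DMSO and 90.7 and 96.8 FPKM in IWP2. The fall of that sum came from IGFBP4 and DKK1, whose values are given above. The 2 tested genes that did not pass, DKK3 and SOSTDC1 (named after their values were seen), had higher means in IWP2. DKK3 went from 28.4 to 35.6 FPKM and SOSTDC1 from 1.79 to 4.81 FPKM. Among 9 membrane antagonists 8 could be tested and 2 fell: APCDD1, which binds Wnt ligands and LRP5, and TRABD2B, a protease that cuts Wnt ligands.

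**Figure D4:**
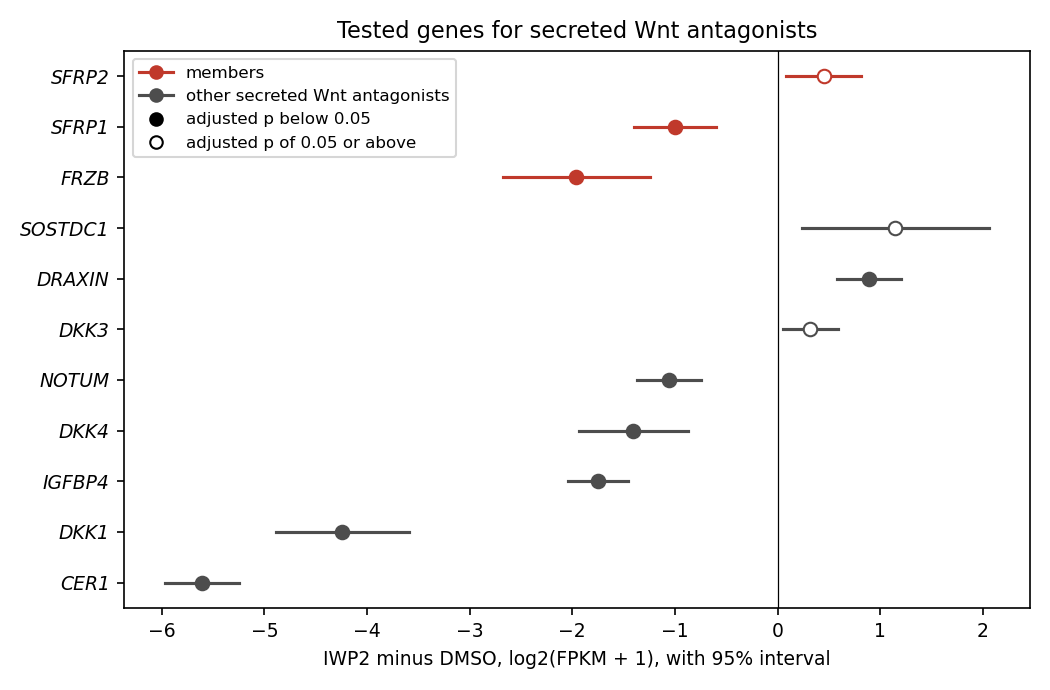
Difference between IWP2 and DMSO on the log2(FPKM + 1) scale (x axis) with its 95% interval from limma for the 3 tested members and the 8 other tested genes for secreted Wnt antagonists (y axis); filled points had an adjusted p below 0.05. FRZB (-1.96) and SFRP1 (-1.00) fell with CER1, DKK1, IGFBP4, DKK4 and NOTUM, and DRAXIN (0.89) rose. SFRP2 (0.45), DKK3 (0.32) and SOSTDC1 (1.15) lie above 0 and did not pass.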

How the data were processed

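RNA from H1-derived cells at day 2 was sequenced in 2 DMSO and 2 IWP2 libraries prepared with an Illumina TruSeq kit. The authors deposited 1 table of FPKM values, already scaled for gene length and library size, with no counts. The file itself names no unit: the values are not whole and their library sums differ. The submitters' processing notes name BWA, Bowtie and RSEM and the build hg19, without roles. However, gene positions in the table are those of GRCh38, and 99.8% of the 55723 gene IDs shared with GENCODE v29 had the same position. Columns were matched to groups by their sign (with or without IWP2) and keep the number in their names.

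Values were transformed as log2(FPKM + 1). Genes with a mean of at least 0.5 FPKM over all libraries (15980) were fitted with limma 3.58.1 in R 4.3.3 with a mean-variance trend, and p-values were adjusted over all of them by the Benjamini-Hochberg method. The threshold was 0.05. The script was tested on simulated data. The members and gene lists were chosen with earlier results of these data known. The text names all members and, per list, up to 4 called genes with the largest differences, except where it says otherwise. One gene that this rule names is not reported here. Alternatives covered the pseudocount, filter, scaling, trend, replicate block and each library left out. Where a symbol repeated, the row with the highest mean was used.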

Additional observations from a re-analysis of the deposited data

How the results depend on the processing

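The directions of SFRP1, SFRP2 and FRZB were kept under all 13 alternatives, with differences of -0.85 to -1.19, 0.30 to 0.60 and -1.57 to -2.70 on the log2 scale. The 2 calls (FRZB and SFRP1) were kept under other pseudocounts, a stricter filter, 3 other scalings, no trend and the replicate block. With no filter on low values, 0 members passed with limma (3 of 6, SFRP1, SFRP5 and FRZB, had an unadjusted p under the threshold), and 118 genes rose and 263 fell, over 28917 genes. When each library was left out in turn, 0 to 1 members passed (2 or 3 had an unadjusted p under the threshold), 18 to 286 genes rose and 76 to 410 fell. These fits have fewer libraries, and a lone library is assumed to vary like the other group. With the replicate block, 2 members passed, and 842 genes rose and 1059 fell; same-numbered libraries correlated at 0.14 in their deviations from the group means, and the labels do not say that a number marks a shared culture. Quantile normalization moved the share of lower calls from 55.8% to 49.8%. No scaling moved the median of all genes by over 0.1. Depth is unknown, which limits what can be said of SFRP4, SFRP5 and WIF1.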
